A study of Homo sapiens with 28 samples.

Results

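The human mitochondrial genome carries 37 genes, and all 37 were among the 58735 genes of the deposited count table. They were taken as every gene that the table placed on the mitochondrial chromosome (MT). They comprise 13 genes for messenger RNAs (mRNAs), 2 for ribosomal RNAs (rRNAs) and 22 for transfer RNAs (tRNAs). Below, each of the 13 is counted as an mRNA of its own, although genes that overlap can lie on the same RNA. Each position and strand matched GENCODE release 29 on GRCh38. The heavy-strand transcript holds 12 mRNAs, both rRNAs and 14 tRNAs, and the light-strand transcript holds MT-ND6 and 8 tRNAs. A filter on low counts left 34 of the 37 for testing, which were every mRNA and rRNA, 13 heavy-strand tRNAs and 6 light-strand tRNAs. MT-TA, MT-TS1 and MT-TW did not pass it.

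The cells were MDA-MB-231, an established human line of triple-negative breast cancer, kept in puromycin. A control line carried an empty vector (EV), and the other line overexpressed tropomyosin 2.1 (Tpm2.1), an actin-binding product of TPM2. Attached cells of either line were taken after 6 hours on culture plates, and suspended cells after 5 hours or 1, 2 or 4 days on ultra-low attachment plates. Only suspended Tpm2.1 cells are described as separated with Annexin V beads, which hold cells that expose phosphatidylserine, into an apoptotic and a non-apoptotic fraction. In suspension, line and separation therefore changed together between EV and Tpm2.1 libraries and cannot be told apart. Each of the 14 groups had 2 libraries, labelled as biological replicates, and p-values measure the spread between these libraries. How many clones each line came from was not given in the sources used here.

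Each mitochondrial strand is transcribed as a long precursor. The tRNAs that lie between most mRNAs and rRNAs are cut out, which frees the RNAs beside them, and most mRNAs then receive a short poly(A) tail. The mRNAs encode subunits of respiratory complexes I, III and IV and of ATP synthase, while the rRNAs and tRNAs serve translation inside the organelle. Loss of mitochondrial membrane integrity is an early step of intrinsic apoptosis. The libraries were made from RNA caught on poly-T beads, so the counts describe RNA that was retained there. Whether strands were kept apart in library making or counting was not given in the sources used here. Reads from a gene and from RNA of the opposite strand therefore cannot be told apart.

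The annotated ends of the mRNA genes are shown first, since the poly(A) tail completes a stop codon in some mRNAs and capture depended on such tails. As annotated in GENCODE release 29, 6 of the 12 heavy-strand mRNA genes end in a complete stop codon and 6 in 1 or 2 of its bases. These are gene ends, and the ends of the RNAs were not measured. Of the genes with a complete stop codon, MT-ATP8 and MT-ND4L end inside MT-ATP6 and MT-ND4. The last base of MT-ATP6 is also the first of MT-CO3. For these genes the annotated end need not be an RNA end that carries a tail, and for the other genes this is not known from these data. The last 30 bases of 5 mRNA genes are given 5′ to 3′. Capitals mark the stop codon or the part of it that the genome encodes.
MT-ND5: ctcatcctaaccctactcctaatcacaTAA
MT-ND4L: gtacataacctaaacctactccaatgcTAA
MT-ND1: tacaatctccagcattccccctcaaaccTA
MT-ND4: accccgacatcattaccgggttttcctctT
MT-ND6: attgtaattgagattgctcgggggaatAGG
MT-ND5 and MT-ND4L end in TAA, MT-ND1 in TA, MT-ND4 in a lone T, and MT-ND6, of the other strand, in AGG.

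The tRNA genes on which the later results turn are printed in full, 5′ to 3′ on their own strand, with the anticodon in capitals.
MT-TP: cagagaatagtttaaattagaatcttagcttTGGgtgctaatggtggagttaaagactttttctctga
MT-TY: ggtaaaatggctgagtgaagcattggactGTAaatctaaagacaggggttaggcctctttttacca
MT-TC: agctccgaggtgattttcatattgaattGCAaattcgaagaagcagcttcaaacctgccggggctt
MT-TN: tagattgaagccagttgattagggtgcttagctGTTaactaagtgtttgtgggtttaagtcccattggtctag
MT-TL1: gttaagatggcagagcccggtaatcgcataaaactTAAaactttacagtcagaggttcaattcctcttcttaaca
MT-TE: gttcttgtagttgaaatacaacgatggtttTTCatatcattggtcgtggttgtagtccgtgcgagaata
MT-TP (proline, MT:15956-16023) and MT-TE (glutamate, MT:14674-14742) lie on either side of the heavy-strand gene MT-CYB (MT:14747-15887). MT-TN (asparagine, MT:5657-5729), MT-TC (cysteine, MT:5761-5826) and MT-TY (tyrosine, MT:5826-5891) lie together before MT-CO1 (MT:5904-7445). Those 5 are read from the light-strand transcript. MT-TL1 (leucine, MT:3230-3304) is a heavy-strand tRNA between MT-RNR2 (MT:1671-3229) and MT-ND1 (MT:3307-4262). Genes overlap by 46 bases at MT-ATP8 and MT-ATP6, by 7 bases at MT-ND4L and MT-ND4, by 3 bases at MT-TI and MT-TQ, and by 1 base at MT-TC and MT-TY and at MT-ATP6 and MT-CO3. How reads in the overlaps were assigned was not given in the sources used here.

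Library totals ran from 13043529 to 27416335 counts, of which 963 to 3244 fell on the 22 tRNA genes. TPM2 lay between 22.7 and 46.1 CPM (counts scaled to a common library total) in the 10 EV libraries and between 2461 and 7861 CPM in the 18 Tpm2.1 libraries. The line's markers were present, with VIM at 743 to 1530 CPM and CD44 at 228 to 862 CPM, while ESR1 stayed at or under 2.41 CPM and PGR at or under 0.121 CPM. Of the markers of other cells, PTPRC, CD3E, LYZ and CDH5 were each under 1 CPM in every library and PECAM1 ran from 0.228 to 11.9 CPM. The library names of the attached samples are numbered 3 and 4 and those of all suspended samples 1 and 2. If those numbers mark a batch, it cannot be told apart from attachment. In bulk RNA, fewer cells of a type and less RNA per cell cannot be told apart, so every level below is a share of a library.

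Between 1.29% and 8.43% of a library's counts fell on mitochondrial genes. The mRNAs took 75.9% to 92.98% of those counts, the rRNAs 6.70% to 23.8% and the tRNAs 0.236% to 0.930%. In attached cells the share of all counts was 1.76% and 1.79% in the EV libraries and 2.37% and 2.41% in the Tpm2.1 libraries. Suspended EV cells stood at 3.43% and 3.33% after 5 hours, 4.49% and 4.78% after 1 day, 4.34% and 4.36% after 2 days and 1.29% and 1.47% after 4 days. The non-apoptotic Tpm2.1 fraction stood at 1.78% and 1.58%, 1.56% and 1.79%, 1.43% and 1.33% and 1.47% and 1.82% at the same times. The apoptotic fraction stood at 4.28% and 5.87%, 4.51% and 4.97%, 4.49% and 2.91% and 8.43% and 7.62%. Every apoptotic library thus lay above both non-apoptotic libraries of its time, and the 2 apoptotic libraries at 4 days were the highest of the 28.

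**Figure D1:**
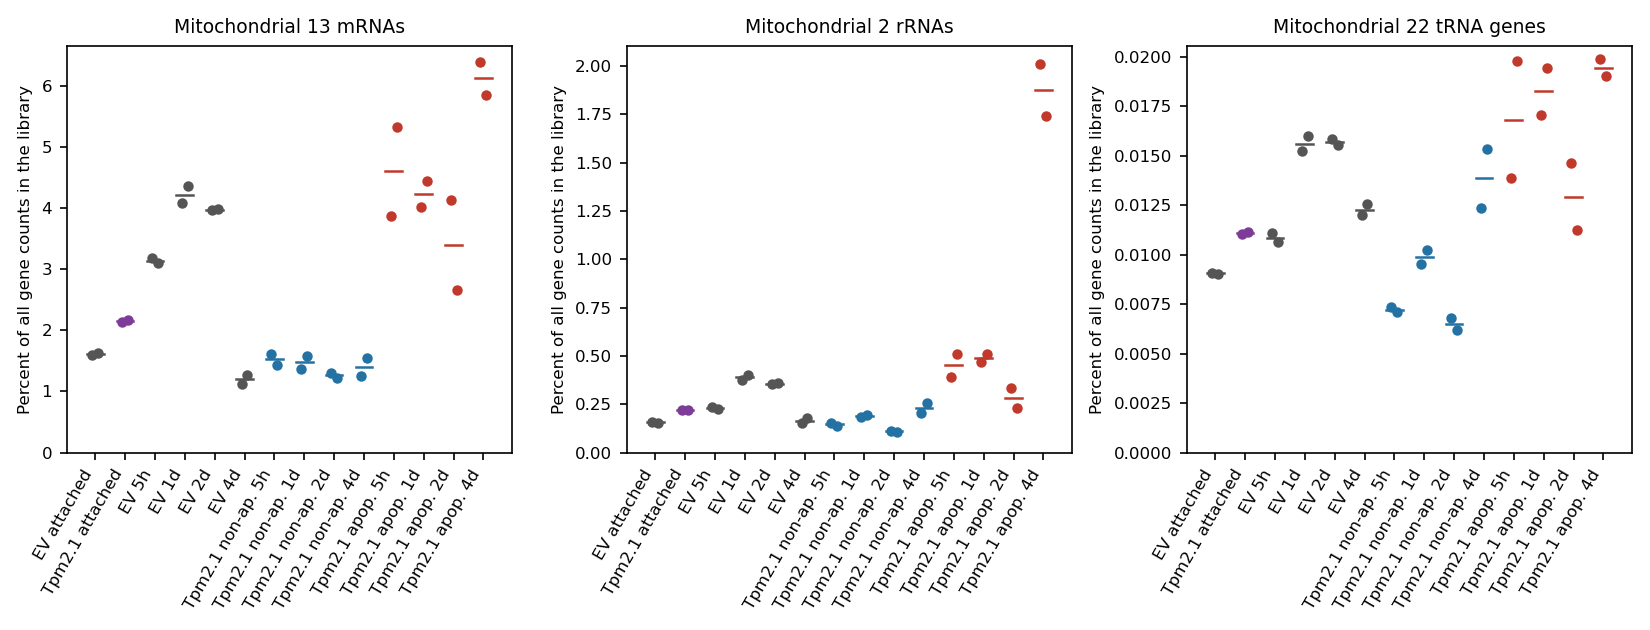
The share of all gene counts, in percent, on the 13 mitochondrial mRNAs, the 2 rRNAs and the 22 tRNA genes in each of the 14 groups, with points for libraries and bars for group means. Both apoptotic libraries at 4 days are the highest in the mRNA and rRNA panels, and the rRNAs reach at most 2.01% of all counts.

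Levels were compared between genes per gene length, as the deposited FPKM values (counts scaled by gene length and by the library's scaled total). MT-CO1, the catalytic core of complex IV, had the highest group mean of the 15 mRNAs and rRNAs in all 14 groups. Its group means ran from 2325 FPKM to 18375 FPKM. MT-CO2 and MT-CO3, the other complex IV subunits, took places 2 to 4 in every group. In attached EV cells MT-CO1 averaged 3797 ± 80.5 (SD, n = 2) FPKM, MT-CO3 2529.5 ± 92.8 (SD, n = 2) and MT-CO2 2505 ± 63.4 (SD, n = 2), and the last pair differed by less than their spread. MT-ATP8, a small ATP synthase subunit, was last in all 14 groups with group means of 23.4 to 149 FPKM. MT-ATP6, with which it shares 46 of its bases, had group means of 1283 to 5119 FPKM. Whether the counts of these overlapping genes came from separate RNAs was not measured. MT-RNR1, the small-subunit (12S) rRNA, ranked no higher than place 13, whereas MT-RNR2, the large-subunit (16S) rRNA, ranged from place 11 to place 2. MT-RNR2 reached place 2 in the apoptotic fraction at 4 days, at 13432 ± 1471 (SD, n = 2) FPKM, and stood in place 9 in attached EV cells, at 935.1 ± 6.42 (SD, n = 2) FPKM. The rRNAs carry very short tails at most, and how fully poly-T beads retained them was not tested.

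In attached cells, mitochondrial genes were modestly higher in the Tpm2.1 line than in the EV line. MT-ND4, a complex I subunit, was at 2139 and 2081 CPM in the EV libraries and at 3275 and 3315 CPM in the Tpm2.1 libraries. MT-RNR1 was at 224 and 224 CPM in EV and at 382 and 373 CPM in Tpm2.1. The lines did not overlap for either gene. Their log2 fold changes ± SE were 0.64 ± 0.12 (adjusted p = 1.5e-04) and 0.75 ± 0.09 (adjusted p = 3.5e-08). These and all adjusted p-values below, save those of count ratios, come from edgeR's quasi-likelihood test with Benjamini-Hochberg adjustment over 17191 genes. Of the 34 tested members 19 rose and 0 fell, against 10.4% of all genes that rose and 10.1% that fell. No member was lower at an unadjusted p under 0.05 either, and DESeq2 also called 0 lower.

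The 19 were 11 of 12 heavy-strand mRNAs, both rRNAs, 5 heavy-strand tRNAs and 1 light-strand tRNA. The heavy-strand mRNAs had a median log2 fold change of 0.40, with a range of 0.28 to 0.64, beside a median of -0.00023 over all genes. MT-CO1 rose by a log2 fold change of 0.35 ± 0.11 (adjusted p = 0.023), and MT-RNR2 by 0.45 ± 0.11 (adjusted p = 0.0018). MT-ATP8, at 0.28 ± 0.19 (adjusted p = 0.33), and MT-ND6, a complex I subunit, at 0.23 ± 0.14 (adjusted p = 0.28), did not pass. MT-ND6 became a call at 0.24 with the attached libraries alone (adjusted p = 1.7e-08) and at 0.20 without the filter (adjusted p = 0.0065). The number of calls fell from 19 whichever of the 4 attached libraries was left out, in fits that kept a lone library in that group. Without EV replicate 1 or 2 MT-CO1 stood at 0.33 or 0.37, and without Tpm2.1 replicate 1 or 2 at 0.35. MT-ND3 moved more, from 0.35 to 0.28 without Tpm2.1 replicate 2. MT-ND1, MT-ND4, both rRNAs and MT-TL1 passed in each of these 4 fits, whereas MT-CO1 missed in all 4 (highest adjusted p = 0.13). DESeq2 called 7 members, which included both rRNAs and 2 of the 13 mRNAs.

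Suspension of EV cells for 5 hours to 2 days was accompanied by higher levels of all 13 mitochondrial mRNAs. MT-ND4 was at 2139 and 2081 CPM in attached EV cells and at 4949 and 4905 CPM after 5 hours, 6576 and 7292 CPM after 1 day and 6397 and 6379 CPM after 2 days. MT-CO1 went from 5719 and 5875 CPM when attached to 8168 and 8010.5, then 12286 and 12939, then 11177 and 11615 CPM at those times. For both genes all 6 suspended libraries were above both attached ones. The mean over the 3 times, against attached cells, gave a log2 fold change of 1.51 ± 0.11 (adjusted p = 4.7e-15) for MT-ND4 and 0.86 ± 0.10 (adjusted p = 6.7e-10) for MT-CO1.

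Across the tested members 18 rose and 1 fell, against 33.7% of all genes that rose and 32.5% that fell. The 12 heavy-strand mRNAs rose with a median log2 fold change of 1.10, where the median of all genes was 0.05. MT-ND6 rose by 0.86 ± 0.12 (adjusted p = 1.0e-07) over the 3 times, although at 5 hours alone, where 54.7% of all genes passed, it did not pass, with libraries at 213 and 216 CPM attached and 256 and 225 CPM suspended. The 2 rRNAs differed in their calls. MT-RNR2 rose by 0.94 ± 0.09 (adjusted p = 1.3e-11), while MT-RNR1 had 0.15 ± 0.07 (adjusted p = 0.076) and did not pass. MT-RNR1 was at 224 and 224 CPM attached and at 245 and 231, then 264 and 281, then 241 and 234 CPM at the 3 suspended times, so that all 6 suspended libraries lay above both attached ones by a small margin. With the libraries of this comparison alone MT-RNR1 passed, at 0.13 (adjusted p = 4.0e-04). Among tRNAs, 2 of 13 heavy-strand and 2 of 6 light-strand genes rose. MT-TL1 had a log2 fold change of 1.79 ± 0.14 (adjusted p = 3.4e-14), and MT-TN was the member that fell, at -0.46 ± 0.10 (adjusted p = 1.7e-04).

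**Figure D2:**
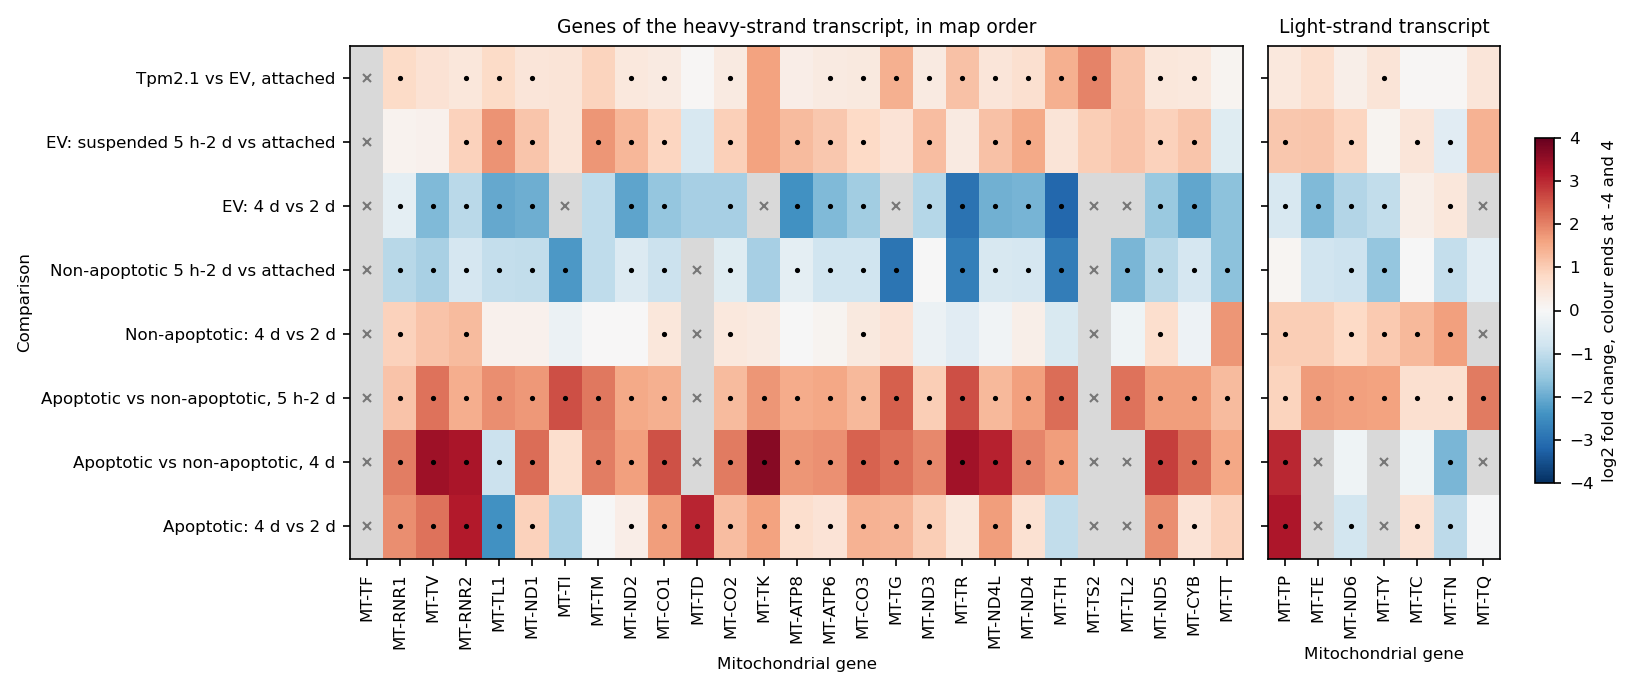
The log2 fold changes of the 34 tested members (columns, in map order) in 8 comparisons (rows). Heavy-strand and light-strand transcripts are in separate panels, the latter in order of transcription. Dots mark calls at an adjusted p under 0.05, grey crosses mark genes with 3 or fewer counts in a compared group, and colours end at -4 and 4. MT-TN is the one light-strand gene that fell in suspended against attached EV cells. The apoptotic rows at 4 days show members that rose beside members that fell.

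The non-apoptotic Tpm2.1 fraction moved in the other direction over the same times. MT-CO1 was at 7395 and 7420.0 CPM in attached Tpm2.1 cells and at 4584 and 4029 CPM after 5 hours, 4277 and 4621 CPM after 1 day and 3755 and 3557 CPM after 2 days. MT-RNR1 went from 382 and 373 CPM to 221 and 192, then 208 and 207, then 140.5 and 110.5 CPM. All 6 suspended libraries were below both attached ones in each case. The log2 fold changes were -0.85 ± 0.09 (adjusted p = 1.3e-10) and -1.11 ± 0.07 (adjusted p = 1.2e-16).

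Of the tested members 25 fell and 0 rose, against 29.1% of all genes that fell and 28.5% that rose. At an unadjusted p under 0.05, 1 member was higher, and DESeq2 called 0 higher. The heavy-strand mRNAs had a median of -0.67, and 11 of 12 fell. MT-ND5, a complex I subunit, fell, at -1.11 ± 0.10 (adjusted p = 2.8e-12), and MT-ND6 fell, at -0.83 ± 0.11 (adjusted p = 5.9e-08). MT-ND3, another complex I subunit, had a log2 fold change of -0.01 ± 0.09 (adjusted p = 0.92) and did not pass. Both rRNAs fell, with -0.68 ± 0.08 (adjusted p = 4.2e-09) for MT-RNR2. Of the tRNAs, 9 heavy-strand and 2 light-strand genes fell.

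The difference of the 2 suspension responses was tested in 1 model. In it, 28 members were lower and 0 higher in the non-apoptotic Tpm2.1 response than in the EV response, against 16.8% and 18.6% of all genes. No member was higher at an unadjusted p under 0.05 either, and DESeq2 was not run on this difference. MT-ND4 had a difference in log2 fold change of -2.19 ± 0.14 (adjusted p = 1.7e-14), and MT-CO1 had -1.70 ± 0.13 (adjusted p = 9.8e-13). Since the non-apoptotic cells were bead-separated and EV cells were not, the difference covers line and separation together.

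Compared directly in suspension from 5 hours to 2 days, 31 members were lower and 0 higher in non-apoptotic Tpm2.1 than in EV libraries, against 29.9% and 29.4% of all genes. No member was higher at an unadjusted p under 0.05 or by DESeq2. MT-ND1, a complex I subunit, had a log2 fold change of -1.64 ± 0.07 (adjusted p = 3.2e-21), MT-CO1 -1.35 ± 0.07 (adjusted p = 1.1e-19), MT-RNR2 -1.17 ± 0.06 (adjusted p = 7.8e-19) and MT-RNR1 -0.50 ± 0.05 (adjusted p = 2.3e-10). MT-ND6 was also lower, at -1.46 ± 0.09 (adjusted p = 2.1e-17).

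Within the Tpm2.1 line, the fraction that bound Annexin V held more mitochondrial RNA per library than the fraction that did not. MT-CO1 was at 10234 and 14285 CPM in apoptotic libraries after 5 hours, 11479 and 12522 CPM after 1 day and 11098 and 7398 CPM after 2 days. MT-ND4 was at 6241 and 8809, then 6112 and 6894, then 6611 and 4244 CPM in the apoptotic fraction, against 2392 and 2122, then 1945 and 2297, then 1937 and 1733 CPM in the non-apoptotic fraction. The fractions did not overlap at any of the 3 times for either gene. Replicate 2 of the apoptotic fraction at 2 days was the lowest of the 6 apoptotic libraries for both. Averaged over the 3 times, the log2 fold change was 1.43 ± 0.07 (adjusted p = 4.7e-19) for MT-CO1 and 1.64 ± 0.07 (adjusted p = 1.1e-19) for MT-ND4.

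Of the tested members 33 rose and 0 fell, against 16.7% of all genes that rose and 21.8% that fell. Neither an unadjusted p under 0.05 nor DESeq2 gave a lower member. MT-TD, an aspartate tRNA with few counts, was the exception that did not pass. The 12 heavy-strand mRNAs had a median of 1.51 where all genes had -0.02, with a range from 0.98 for MT-ND3 to 1.75 for MT-ND1. MT-ND6 rose by 1.65 ± 0.09 (adjusted p = 9.2e-18), MT-RNR2 by 1.46 ± 0.06 (adjusted p = 5.5e-20) and MT-RNR1 by 1.13 ± 0.05 (adjusted p = 5.0e-19). Genes annotated on both strands and of both long RNA classes thus had higher counts, while the strand of the reads was not known. Among tRNAs 12 of 13 heavy-strand and 6 of 6 light-strand genes rose, MT-TL1 by 1.86 ± 0.10 (adjusted p = 1.3e-17).

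Set beside EV cells in suspension at the same times, the apoptotic fraction differed in 10 members, all of them higher, against 21.1% of all genes that were higher and 23.8% that were lower. No member was lower at an unadjusted p under 0.05, and DESeq2 was not run here. MT-CYB, the complex III subunit, was higher by 0.32 ± 0.08 (adjusted p = 6.3e-04) and MT-CO2 by 0.21 ± 0.07 (adjusted p = 0.0075), and the other 10 heavy-strand mRNAs did not pass. Both rRNAs were higher, MT-RNR1 by 0.63 ± 0.05 (adjusted p = 7.2e-13) and MT-RNR2 by 0.28 ± 0.06 (adjusted p = 1.9e-04). Against attached Tpm2.1 cells, 19 members were higher and 1 lower in the apoptotic fraction, against 31.5% and 31.2% of all genes, and the heavy-strand mRNAs had a median of 0.78. These comparisons share the apoptotic libraries with the comparison of the fractions.

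At 4 days the groups parted. In EV cells MT-CO1 was at 11177 and 11615 CPM after 2 days and at 3698 and 4161 CPM after 4 days. MT-ND2, a complex I subunit, went from 2546 and 2549.9 CPM to 575 and 613 CPM. The times did not overlap, and MT-CO1 at 4 days was also below both attached libraries. The log2 fold changes were -1.54 ± 0.12 (adjusted p = 2.3e-13) and -2.10 ± 0.12 (adjusted p = 6.6e-17).

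In EV cells 27 tested members fell from 2 to 4 days and 1 rose, against 16.7% of all genes that fell and 22.3% that rose. All 12 heavy-strand mRNAs fell, with a median of -1.80 where all genes had 0.02, and MT-ATP8 had -2.43 ± 0.22 (adjusted p = 1.3e-11). MT-ND6 fell, at -1.17 ± 0.15 (adjusted p = 3.1e-08). The rRNAs fell less on this scale, MT-RNR2 at -1.08 ± 0.11 (adjusted p = 1.9e-10) and MT-RNR1 at -0.40 ± 0.09 (adjusted p = 6.9e-04). The difference between classes was not tested. MT-TN was the member that rose, by 0.46 ± 0.13 (adjusted p = 0.0055), although it stood at 0.27 without replicate 2 at 2 days and did not pass (adjusted p = 0.19). The leucine tRNA MT-TL2 had 30 counts in the 2 libraries at 2 days and 0 at 4 days. With the 0 set to a floor of 3 counts over the group, this is 9.46-fold lower. The exact interval for counting error starts at 7.23-fold lower. The lysine tRNA MT-TK had 25 and 0 counts, 7.88-fold lower at that floor, with an interval that starts at 5.95-fold lower.

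In the non-apoptotic fraction, 11 members rose from 2 to 4 days and 0 fell, against 18% of all genes that rose and 16.1% that fell. No member was lower at an unadjusted p under 0.05 or by DESeq2, but other alternatives called some heavy-strand mRNAs lower. MT-CYB was called at -0.22 and MT-ND3 at -0.24 with the libraries of this comparison alone, and without the filter these genes and MT-ND4L, at -0.19, were called. MT-RNR2 went from 943 and 925 CPM to 1984 and 2476 CPM, and MT-ND6 from 163 and 141 CPM to 249 and 284 CPM. Neither gene overlapped between the times. MT-RNR2 rose by 1.26 ± 0.11 (adjusted p = 2.5e-12) and MT-ND6 by 0.81 ± 0.15 (adjusted p = 3.3e-05). Of the 12 heavy-strand mRNAs 4 rose, among them MT-ND5 by 0.67 ± 0.13 (adjusted p = 8.1e-05) and MT-CO1 by 0.45 ± 0.11 (adjusted p = 0.0019), and the median was 0.13. The other members of these 4 were MT-CO2 and MT-CO3. Without replicate 2 at 4 days MT-CO1, MT-CO2 and MT-CO3 did not pass (adjusted p = 0.11, 0.20 and 0.30), MT-ND5 remained, and MT-ND3 fell, at -0.39 (adjusted p = 0.034). Without replicate 2 at 2 days MT-CO2 and MT-CO3 did not pass (adjusted p = 0.058 and 0.076). The 4 tRNAs that rose were all of the light strand: MT-TN by 1.64 ± 0.14 (adjusted p = 2.2e-12), MT-TC by 1.31 ± 0.12 (adjusted p = 6.1e-12), MT-TY by 1.04 ± 0.24 (adjusted p = 5.9e-04) and MT-TP by 0.97 ± 0.17 (adjusted p = 1.9e-05).

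The change from 2 to 4 days was higher in the non-apoptotic fraction than in EV cells for 28 members and lower for 0, against 13.1% and 18.2% of all genes. Neither an unadjusted p under 0.05 nor DESeq2 gave a lower member. The difference in log2 fold change was 1.98 ± 0.16 (adjusted p = 2.7e-12) for MT-CO1, 2.08 ± 0.18 (adjusted p = 5.3e-12) for MT-ND4, 2.33 ± 0.15 (adjusted p = 7.6e-15) for MT-RNR2 and 1.98 ± 0.21 (adjusted p = 1.2e-09) for MT-ND6. At 4 days itself 9 members were higher and 0 lower in non-apoptotic than in EV libraries, against 20.2% and 23.8% of all genes. Non-apoptotic libraries were above EV libraries for MT-RNR2 by 0.56 ± 0.11 (adjusted p = 3.0e-05), for MT-CO1 by 0.34 ± 0.11 (adjusted p = 0.013) and for MT-ATP8 by 0.79 ± 0.25 (adjusted p = 0.01).

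In the apoptotic fraction at 4 days, the rRNAs and heavy-strand mRNAs were higher than at 2 days while MT-ND6 and some tRNAs were lower. MT-RNR2 was at 2786 and 1969 CPM after 2 days and at 23109 and 20025 CPM after 4 days, against 1984 and 2476 CPM in the non-apoptotic fraction at 4 days. MT-CO1 was at 11098 and 7398 CPM, 30661 and 27712 CPM and 4444 and 5521 CPM in those groups. Both apoptotic libraries at 4 days exceeded the other 26 libraries for both genes. From 2 to 4 days MT-RNR2 rose by 3.18 ± 0.11 (adjusted p = 7.6e-25) on the log2 scale, MT-RNR1 by 1.87 ± 0.09 (adjusted p = 1.3e-20) and MT-CO1 by 1.66 ± 0.12 (adjusted p = 7.1e-16).

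From 2 to 4 days 20 members rose and 8 fell, against 34.3% of all genes that rose and 40.3% that fell. The median of all genes was -0.13, so changes in this comparison stand beside that shift. All 12 heavy-strand mRNAs rose, from 0.25 ± 0.11 (adjusted p = 0.041) for MT-ND2 to 1.86 ± 0.13 (adjusted p = 1.2e-15) for MT-ND5, with a median of 0.95. MT-ND6 fell, at -0.73 ± 0.15 (adjusted p = 3.2e-05), from 505 and 277 CPM to 236 and 235 CPM. Its replicate 2 at 2 days lay close to both libraries at 4 days, and without replicate 1 at 2 days the change was -0.26 and no call (adjusted p = 0.067).

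Against the non-apoptotic fraction at 4 days, 24 members rose and 5 fell, against 35.3% of all genes that rose and 36.8% that fell. The 12 heavy-strand mRNAs had a median of 2.16 where all genes had 0.0. MT-ND4L, whose reading frame overlaps that of MT-ND4, was at 2239.8 and 2065 CPM in apoptotic and at 224 and 287 CPM in non-apoptotic libraries. The fractions were far apart for this gene, with a log2 fold change of 3.07 ± 0.14 (adjusted p = 1.3e-21). MT-RNR2 rose by 3.27 ± 0.11 (adjusted p = 3.9e-25), MT-ND5 by 2.75 ± 0.14 (adjusted p = 2.5e-20) and MT-ND2, with the smallest change of the heavy-strand mRNAs, by 1.65 ± 0.12 (adjusted p = 6.4e-16). MT-ND6, at 236 and 235 CPM against 249 and 284 CPM, had -0.18 ± 0.15 (adjusted p = 0.29) and did not pass.

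Whether the fraction difference at 4 days differed from that at 5 hours to 2 days was tested directly, and 13 members were higher and 9 lower, against 33.2% and 36.4% of all genes. MT-RNR2 had a change of the difference of 1.82 ± 0.12 (adjusted p = 3.4e-16) and MT-ND4L of 1.76 ± 0.15 (adjusted p = 3.7e-13). MT-ND6 went the other way, with -1.83 ± 0.17 (adjusted p = 4.1e-12). Of the heavy-strand mRNAs 9 were higher, while MT-ATP6, MT-ATP8 and MT-ND2 did not pass.

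A correction for GC content changed several results that involve the apoptotic libraries at 4 days. For the change from 2 to 4 days it gave 13 members higher and 11 lower, turned MT-ND2 to -0.27 (adjusted p = 0.035) and MT-ATP8 to -0.11 (adjusted p = 0.60), and left MT-ND4 at 0.21, MT-ATP6 at 0.15 and MT-ND3 at 0.23, no longer called. Between the fractions at 4 days it gave 20 higher and 7 lower, and MT-ND6 became a call at -0.74. MT-ND6 also passed there without the filter, at -0.29, and with the libraries of the comparison alone, at -0.23. MT-RNR2 stayed a call at 2.65 and 2.72 in the 2 comparisons, while MT-TP stood at 1.94 and MT-TL1 at -1.71 between the fractions. Without replicate 2 of the apoptotic fraction at 2 days, MT-ND2 stood at -0.02, MT-CYB at 0.17, MT-ATP6 at 0.23 and MT-ATP8 at 0.38, and none of the 4 was called. MT-ND2 was not called by DESeq2 either, at 0.23.

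**Figure D3:**
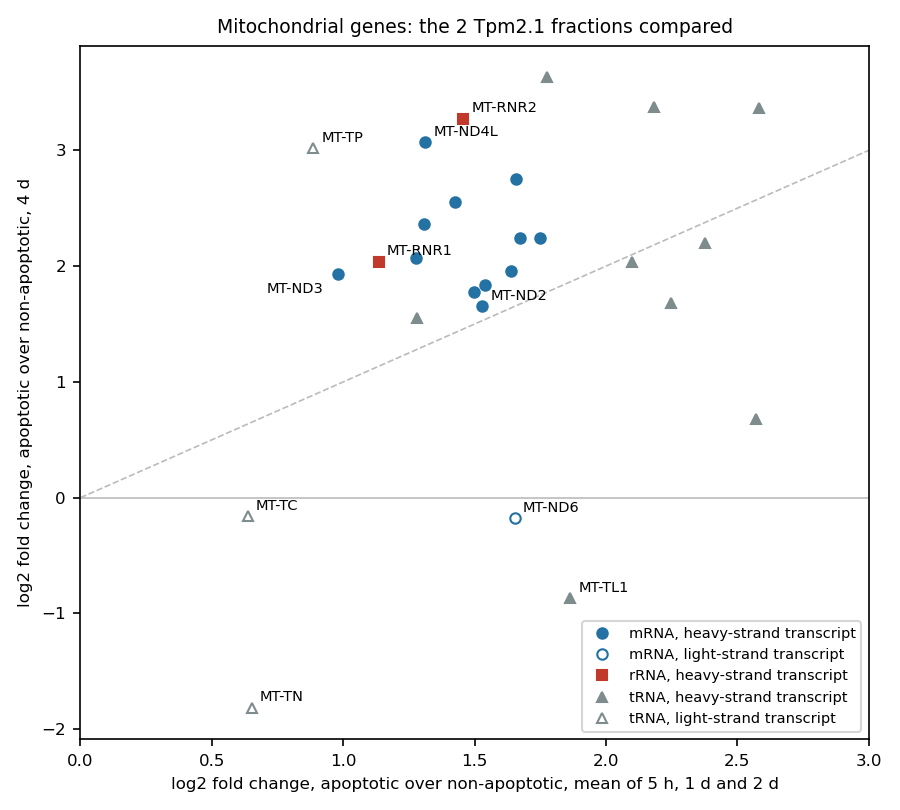
Apoptotic over non-apoptotic log2 fold changes at 4 days (vertical axis) against the mean of 5 hours to 2 days (horizontal axis) for 27 members, coloured by class and strand, with a dashed line where both are equal. The 7 tested members with 3 or fewer counts in a compared group are not drawn. MT-RNR2 and MT-TP lie above the line, and MT-ND6, MT-TL1 and MT-TN lie below it.

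The tRNA genes, whose counts are low in poly(A)-selected libraries, moved in both directions at 4 days. MT-TP was at 143 and 132 CPM in the apoptotic libraries at 4 days, at 16.9 and 12.2 CPM at 2 days, and at 14.04 and 19.99 CPM in the non-apoptotic libraries at 4 days. MT-TY had 0 and 1 counts in the apoptotic libraries at 4 days, and 50 to 300 counts in each of the other 26 libraries. The 2 light-strand tRNAs thus moved apart, with MT-TP above its range elsewhere of 6.75 to 23.6 CPM and MT-TY near 0. MT-TP rose by 3.02 ± 0.14 (adjusted p = 5.1e-21) against the non-apoptotic fraction. For MT-TY, 1 count against 210 gave a ratio of scaled counts of 0.00622, with a 95% interval of 0.000157 to 0.0350 that covers counting error only.

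MT-TN and MT-TC, neighbours of MT-TY, also differed from each other. MT-TN was at 13.7 and 12.96 CPM in apoptotic and at 41.1 and 52.6 CPM in non-apoptotic libraries at 4 days, and fell, at -1.81 ± 0.15 (adjusted p = 2.3e-13). MT-TC was at 57.9 and 64.2 CPM and 61.9 and 74.3 CPM, with -0.16 ± 0.11 (adjusted p = 0.21), which did not pass. MT-TN did not overlap between the fractions, and the 2 genes lie in the same cluster, where MT-TC and MT-TY share 1 base. MT-TC became a call at -0.47 after the GC correction, at -0.31 without non-apoptotic replicate 1, and at -0.27 with scaling on nuclear genes. MT-TE had 1 and 1 counts in the apoptotic libraries at 4 days, and its ratio to the non-apoptotic fraction was 0.145, with a counting interval of 0.0163 to 0.606.

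Among heavy-strand tRNAs, MT-TL1 was at 3.08 and 3.24 CPM in the apoptotic fraction at 4 days, against 5.14 and 6.40 CPM in the non-apoptotic fraction and 20.95 and 12.7 CPM in the apoptotic fraction at 2 days. It fell in both comparisons, at -0.86 ± 0.27 (adjusted p = 0.0039) and -2.41 ± 0.22 (adjusted p = 1.9e-12). MT-TD had 38 and 31 counts there and at most 11 in any other library. Its ratio to the non-apoptotic fraction was 45.0, from 69 counts against 2, with a counting interval of 12 to 379. MT-TL2 and MT-TS2, the latter a serine tRNA, had 0 counts in both apoptotic libraries at 4 days. At 2 days they had 23 and 19 counts. With the 0 counts set to a floor of 3 over the group, they were 5.24-fold and 4.33-fold lower than at 2 days. Their counting intervals start at 3.93-fold and 3.19-fold lower.

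Counted by strand, 8 of 13 heavy-strand tRNAs rose and 2 fell between the fractions at 4 days, while 2 of 6 light-strand tRNAs rose and 3 fell. The calls for MT-TQ, with 8 and 0 counts in the apoptotic libraries, and MT-TH, with 22 and 3, rested on replicate 1, and without it their log2 fold changes were 0 and -0.38. Across all libraries 63.7% to 94.1% of tRNA counts fell on the 8 light-strand tRNA genes.

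**Figure D4:**
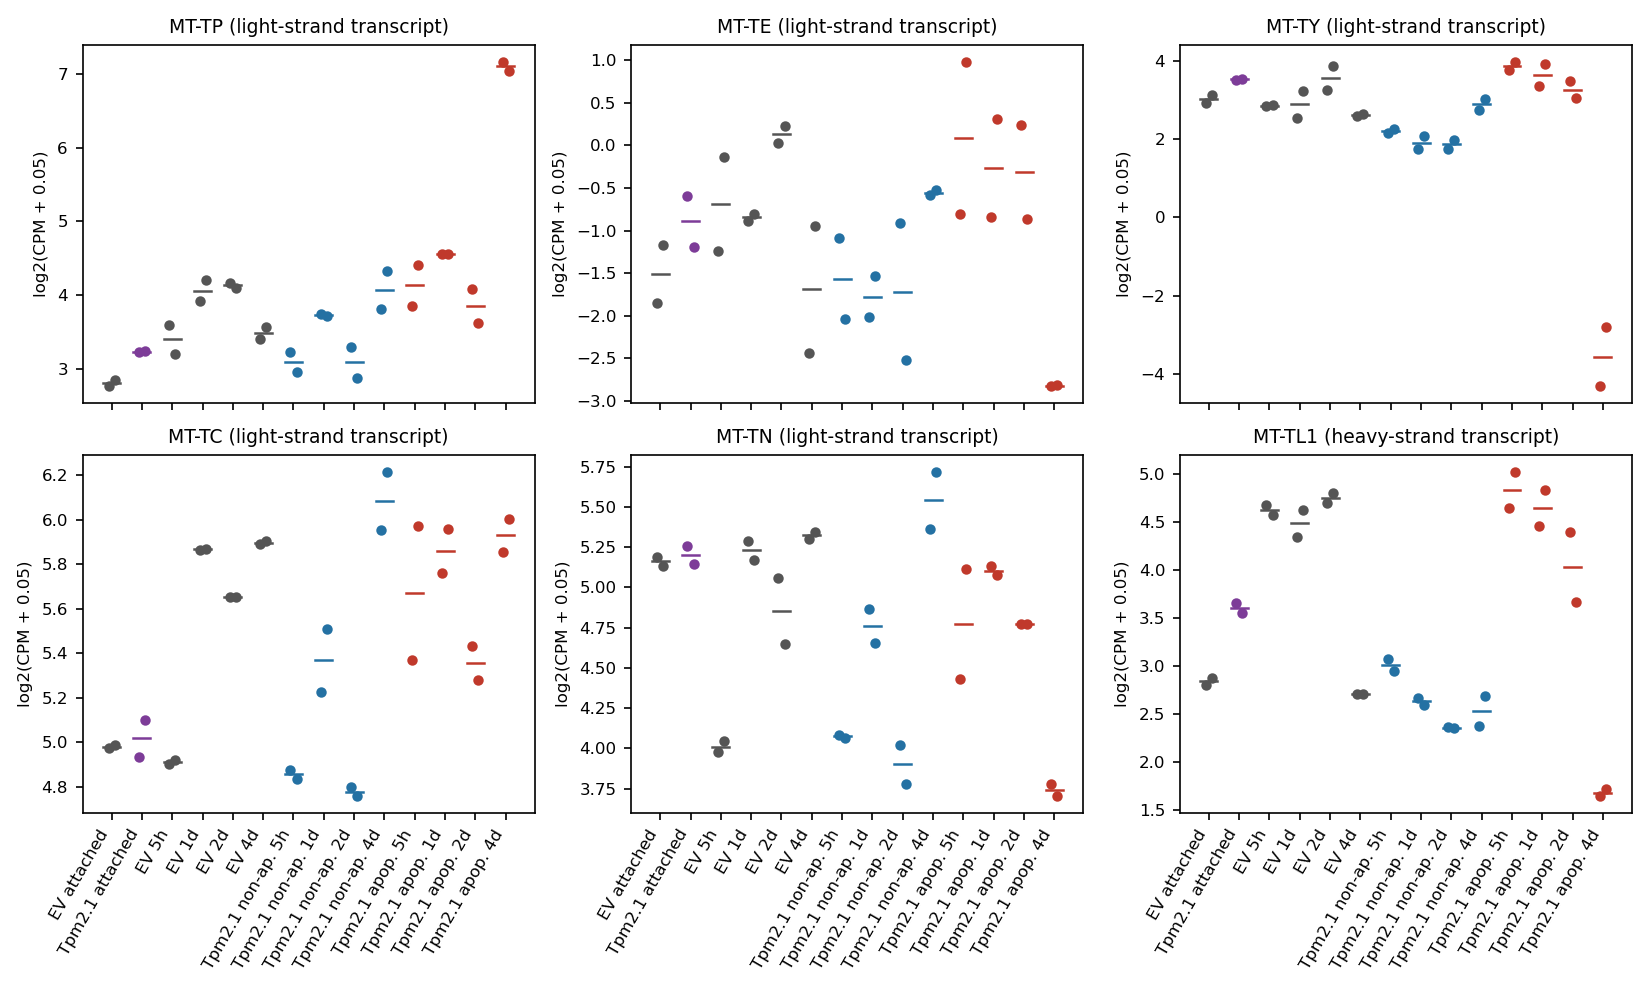
Levels of 5 light-strand tRNA genes (MT-TP, MT-TE, MT-TY, MT-TC, MT-TN) and of the heavy-strand MT-TL1 in all 28 libraries, as log2 of CPM plus 0.05, by group, with points for libraries. In the apoptotic libraries at 4 days MT-TP is at its highest and MT-TY at its lowest, with 0 and 1 counts.

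Ratios of counts within a library do not depend on library scaling, and 3 were compared between the fractions over the 4 times. They were not rerun with the GC correction, which changed values of MT-RNR2 and MT-ND6 at 4 days. MT-ND6 to MT-ND5 sets the light-strand mRNA against its neighbour on the other strand. It was 0.0405 and 0.0436 in the apoptotic libraries at 4 days, and group means elsewhere ran from 0.214 to 0.330. MT-RNR2 to MT-RNR1 sets the rRNAs against each other. It was 19.5 and 24.4 in the apoptotic libraries at 4 days, and group means elsewhere ran from 5.21 to 13.4. MT-RNR2 to MT-ND1 sets the 16S rRNA against the mRNA that follows it, and was 7.28 and 7.75 there, against group means of 1.06 to 3.68 elsewhere. In each ratio those 2 libraries lay outside the range of the other 26.

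Over the 4 times, the MT-RNR2 to MT-RNR1 ratio was higher in the apoptotic fraction by 0.54 on the log2 scale (exact two-sided permutation test within times, p = 0.0031, 0.0093 after Benjamini-Hochberg adjustment over 3 ratios). The smallest p this design allows was 0.0015. The difference was 0.23, 0.48, 0.22 and 1.24 at the successive times, and 0.31 without 4 days (exact permutation p = 0.019). The MT-ND6 to MT-ND5 ratio differed by -0.73 on the log2 scale (exact permutation p = 0.16, adjusted 0.25). Its differences were 0.03, 0.19, -0.22 and -2.93 at the 4 times, so that the mean rested on 4 days. Without 4 days it was -0.00091 (exact permutation p = 0.98). The MT-RNR2 to MT-ND1 ratio differed by 0.042 over the 4 times (exact permutation p = 0.78, adjusted 0.78). It was lower in the apoptotic fraction at the 3 earlier times, at -0.32, -0.42 and -0.12, and higher at 4 days, at 1.03. Without 4 days the mean was -0.29 (exact permutation p = 0.019, where the smallest possible was 0.0093).

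**Figure D5:**
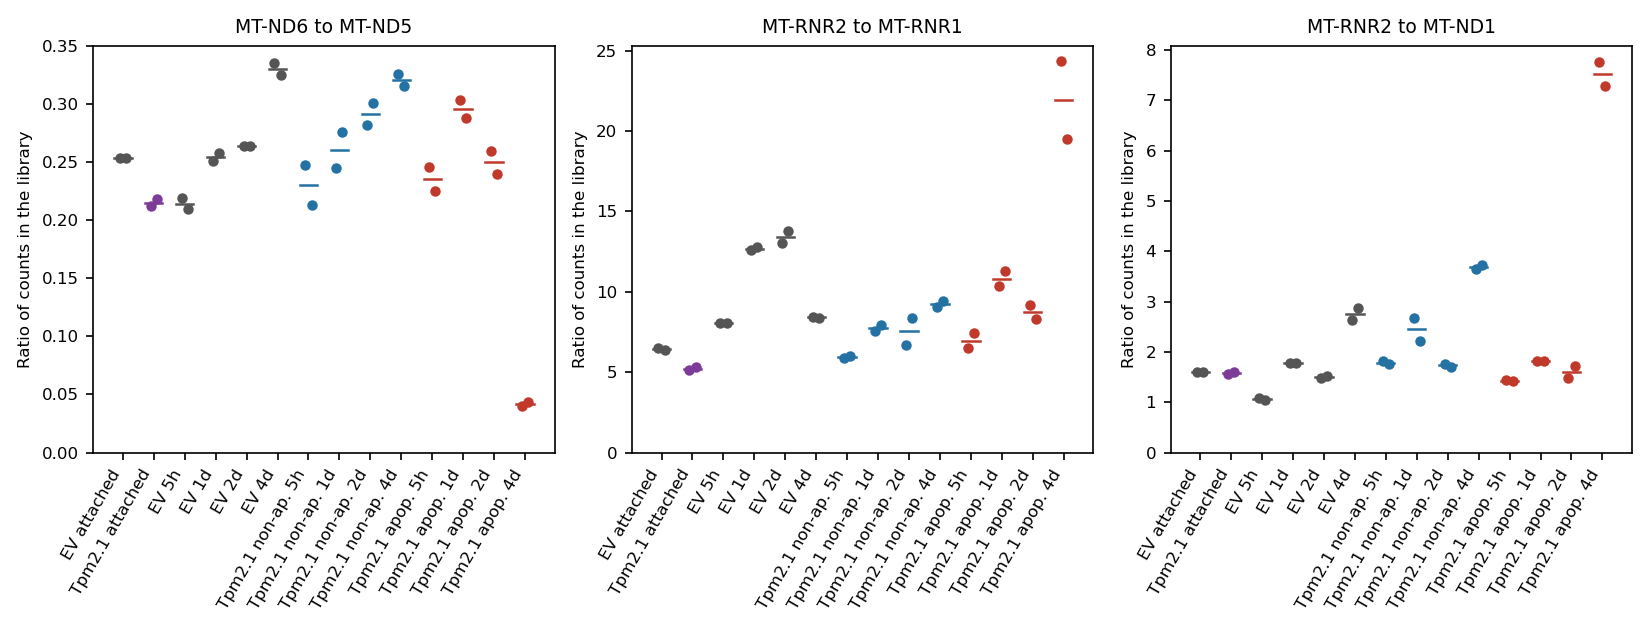
Count ratios within libraries of MT-ND6 to MT-ND5, MT-RNR2 to MT-RNR1 and MT-RNR2 to MT-ND1 in all 28 libraries by group, with points for libraries. Both apoptotic libraries at 4 days stand apart in each panel, at 0.0405 and 0.0436 for the first ratio and at 19.5 and 24.4 for the second.

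The rRNAs took 23.8% and 22.9% of mitochondrial counts in the apoptotic libraries at 4 days, and 6.70% to 13.97% in the other 26. MT-ND6 took 0.308% and 0.332% of the mitochondrial mRNA counts there, and 0.599% to 1.85% elsewhere. MALAT1, a nuclear-retained RNA, was at 291 and 374 CPM in those libraries and at 53.0 and 52.7 CPM in the non-apoptotic libraries at 4 days. It was not particular to the apoptotic libraries, with 399 and 433 CPM in EV libraries at 1 day and 347 and 326 CPM at 2 days. NEAT1, another nuclear-retained RNA, was at 1072 and 1110 CPM in the apoptotic libraries at 4 days. It was at 1301 and 995 CPM in that fraction at 2 days and at 494 and 587 CPM in non-apoptotic libraries at 4 days. These are values of the same libraries, and their part in the mitochondrial differences was not tested.

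The heavy-strand mRNAs were also grouped by the annotated ends of their genes. Median log2 fold changes of the 6 genes with a complete stop codon and the 6 with an incomplete one are given for 4 comparisons. The first group holds MT-ATP8, MT-ND4L and MT-ATP6, whose annotated ends overlap the next gene, so these are not groups of RNA ends. In suspended EV cells against attached ones the medians were 1.01 and 1.17. Between the fractions they were 1.46 and 1.58 at 5 hours to 2 days, and 2.31 and 2.10 at 4 days. From 2 to 4 days in the apoptotic fraction they were 1.45 and 0.77, with ranges of 0.56 to 1.86 and 0.25 to 1.38 that overlapped. Of the 3 genes with annotated TAA ends in the first group, MT-ND5 and MT-ND4L were at 1.86 and 1.66. MT-ATP6 was the lowest of that group at 0.56. MT-ND1 and MT-ND4, with TA and T ends, were in the second at 0.91 and 0.62. The difference between these groups was not tested.

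Reads from mitochondrial RNA can also match nuclear copies of mitochondrial genes. The count table listed 407 such copies, of which 73 had a count and 5 were tested. The 3 with the highest counts, MTND2P28 (chr1:629640-630683), MTCO1P12 (chr1:631074-632616) and MTATP6P1 (chr1:633696-634376), together held 0.694% to 1.29% of the counts on mitochondrial genes and copies. Between the fractions at 5 hours to 2 days their log2 fold changes were 1.42 for MTND2P28, 1.47 for MTCO1P12 and 1.69 for MTATP6P1. At 4 days they were 1.14, 3.19 and 2.57. For a single gene a copy can weigh more than that pooled share: in EV libraries at 2 days MTND2P28 was at 174 and 165 CPM beside MT-ND2 at 2546 and 2549.9 CPM. Counts of these copies and of MT-ND2, MT-CO1 and MT-ATP6 are therefore uncertain.

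The nuclear genes known to act on the mitochondrial genome and its RNA formed a list of 54, all of which were tested. In suspended EV cells, where 18 mitochondrial members rose, 33 of the 54 fell and 10 rose, against 32.5% of all genes that fell and 33.7% that rose. Their median log2 fold change was -0.36 beside 0.05 for all genes. Among the 4 with the smallest p were PPRC1, a co-activator of genes for mitochondrial function, at -0.88 ± 0.05, and TFB2M, a mitochondrial transcription factor, at -1.27 ± 0.08. PNPT1, listed as a gene for RNA decay, was also among them, at -0.80 ± 0.05. LRPPRC, which stabilises mitochondrial mRNAs, was at 473 and 489 CPM in attached EV libraries and 262 and 256 CPM after 2 days, and fell, at -0.61 ± 0.04 over the 3 times. In the non-apoptotic fraction, where 25 members fell, 30 of the 54 fell and 10 rose, against 29.1% and 28.5% of all genes, with a median of -0.24 beside 0.03 for all genes. There PPRC1 fell, at -0.87 ± 0.05, PNPT1 at -0.54 ± 0.05, LRPPRC at -0.44 ± 0.04 and PDE12, which removes poly(A) tails in mitochondria, at -0.86 ± 0.05. The nuclear list had more genes lower than higher in both suspension responses, and some of its genes differed between them. In the direct test of the difference of the 2 responses, non-apoptotic Tpm2.1 against EV, 18 of the 54 were higher and 6 lower, against 18.6% and 16.8% of all genes. TFB2M was higher by 0.66 ± 0.11. PPARGC1A, a co-activator of genes for mitochondrial function, was lower in this test, at -1.53 ± 0.24. It was at 2.14 and 2.23 CPM in attached EV libraries and 16.7 and 22.5 CPM at 2 days, and at 3.03 and 3.42 CPM in attached Tpm2.1 libraries and 5.91 and 5.82 CPM in the non-apoptotic fraction at 2 days.

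In attached cells, 3 of the 54 rose and 4 fell, against 10.4% and 10.1% of all genes, so the list had no more calls than the background. MRM1, an rRNA methyltransferase of mitochondria, fell, at -0.74 ± 0.13 and POLRMT, the mitochondrial RNA polymerase, at -0.32 ± 0.08. Between the fractions at 5 hours to 2 days, 6 rose and 17 fell, against 16.7% and 21.8% of all genes. The 4 with the smallest p were FASTK and POLG2, an accessory subunit of the mitochondrial DNA polymerase, which rose by 0.35 ± 0.04 and 0.45 ± 0.06, and SSBP1, which binds single-stranded mitochondrial DNA, and LRPPRC, which fell, at -0.26 ± 0.04 and -0.17 ± 0.03. At 4 days 24 rose and 21 fell, against 35.3% and 36.8% of all genes. All 6 genes for rRNA modification fell, with a median of -1.17, and all 3 genes for RNA decay rose. FASTK, which is needed for MT-ND6 mRNA, was at 13.3 and 13.9 CPM in the apoptotic and 109.6 and 106 CPM in the non-apoptotic libraries at 4 days. ESRRA, a nuclear receptor that controls genes for mitochondrial function, was at 2.63 and 2.41 CPM and 65.3 and 61.9 CPM. Neither overlapped between the fractions, and they fell, at -2.99 ± 0.09 for FASTK and -4.65 ± 0.13 for ESRRA. The nuclear list was not rerun under the alternatives, among them the GC correction that changed several mitochondrial results at 4 days. At 5 hours to 2 days FASTK had moved the other way between the fractions. At 4 days 72.1% of all genes passed in this comparison, so a call for a single gene is common there.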

How the data were processed

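RNA of 28 libraries was sequenced after poly-T bead selection and random hexamer priming, per the labels' protocols. The authors deposited a table of whole-number counts per gene and a table of FPKM values. The submitters' processing notes name hg38 and DESeq2 with no role, and no aligner or counting tool is given in the sources used here. Deposited FPKM values equalled counts per gene length and scaled total, with scaled totals 0.856 to 1.08 times the count totals.

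The count model was that of edgeR 4.0.16 (R 4.3.3; TMM scaling, filterByExpr, 1 mean per group, quasi-likelihood F test), with 17191 genes tested, 14 residual degrees of freedom and Benjamini-Hochberg adjustment within a comparison. Calls were made at an adjusted p under 0.05. CPM values are counts scaled to a common TMM-adjusted library total, and the SE is the absolute log2 fold change over the square root of F. Count ratios were compared with exact permutation tests (scipy 1.17.1). Tables used pandas 2.3.3 and numpy 2.4.6 in python 3.11.15. Intervals for low counts are exact 95% intervals for counting error only. Total counts of 13043529 to 27416335 per library limit the tRNA genes most.

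Groups and lists came from the labels and textbook knowledge, and members, lists and comparisons were chosen with earlier results of these data known. The libraries at 4 days were taken apart because those results showed that the mitochondrial share fell there. The plan also already described the apoptotic libraries at 4 days as standing apart. The p-values of comparisons that set 4 days apart are therefore not independent of a pattern seen beforehand. All 13 mRNAs and 2 rRNAs could be named, tRNA genes where they passed the filter, the 4 genes of the nuclear list with the smallest p in a comparison, and the 3 nuclear copies with the most counts. Alternatives were DESeq2 1.42.0 (Wald test), its size factors in edgeR, scaling on nuclear genes, no filter, the libraries of a comparison alone, a block for replicate number, leaving out each library in turn and, chosen after seeing the data, a GC correction (lowess, span 0.2, 17183 genes). The attached and fraction comparisons were first checked on simulated counts. The level of a listed leukocyte marker is not reported here.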

Additional observations from a re-analysis of the deposited data

Results flagged for a closer look

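The responses to suspension from 5 hours to 2 days differed between non-apoptotic Tpm2.1 and EV cells in 28 of the 34 tested members. By the edgeR test of the difference itself all 28 were lower, where 16.8% of all genes were lower and 18.6% higher. The differences were -2.19 ± 0.14 (adjusted p = 1.7e-14) for MT-ND4 and -1.70 ± 0.13 (adjusted p = 9.8e-13) for MT-CO1 (log2, ± SE). The change from 2 to 4 days differed between non-apoptotic Tpm2.1 and EV cells in 28 members by the same kind of test. All 28 were higher, where 13.1% of all genes were higher and 18.2% lower, with 2.08 ± 0.18 (adjusted p = 5.3e-12) for MT-ND4. Both differences cover the line and the bead separation together. The difference between the fractions at 4 days differed from that at 5 hours to 2 days in 22 members, 13 higher and 9 lower. Of all genes 33.2% were higher and 36.4% lower, so a call in this test was common. The values were 1.82 ± 0.12 (adjusted p = 3.4e-16) for MT-RNR2 and -1.83 ± 0.17 (adjusted p = 4.1e-12) for MT-ND6. With 2 libraries a group, no single library could be tested for standing apart from its group.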

How the results depend on the processing

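The count of 19 called members between the attached lines was 7 by DESeq2 and 8 to 12 with 1 library left out, and 13 after the GC correction. Leaving out 1 library at a time gave 18 to 20 called members in suspended EV cells, 25 to 26 for EV cells from 2 to 4 days, 22 to 26 in the suspended non-apoptotic fraction, 9 to 11 for that fraction from 2 to 4 days and 23 to 27 for the apoptotic fraction from 2 to 4 days. It gave 31 to 34 for the fractions at 5 hours to 2 days, 24 to 27 for them at 4 days, 28 to 30 for non-apoptotic Tpm2.1 against EV and 23 to 27 for the difference of their late changes. A lone remaining library of a group was taken to vary as libraries did elsewhere. The log2 differences of the ratios ranged from -0.761 to -0.706 for MT-ND6 to MT-ND5, from 0.500 to 0.581 for MT-RNR2 to MT-RNR1 and from 0.00790 to 0.0754 for MT-RNR2 to MT-ND1, and the last was -0.288 without 4 days.

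Results that turned sign were MT-ND2 from 2 to 4 days in the apoptotic fraction, at -0.27 with the GC correction and -0.0153 to 0.517 with 1 library left out (lowest without replicate 2 at 2 days), MT-ATP8 there, at -0.11 with the GC correction, and MT-TQ and MT-TH between the fractions at 4 days, with ranges of 0 to 6.64 and -0.38 to 2.43 (lowest without replicate 1 of the apoptotic fraction). The cause was not tested. Over 4625 combinations of a member's result and an alternative, 4373 kept direction and call, 202 lost the call, 45 gained it and 5 turned sign or went to 0. The suspension-response difference and the change of the fraction difference were not rerun under the alternatives, and the count ratios were not rerun with the GC correction. Scaling on nuclear genes alone put the median of all genes at -0.21 for the apoptotic fraction from 2 to 4 days and at -0.11 for the fractions at 4 days.

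Replicate numbers did not pair the libraries: over 91 pairs of groups the correlation of same-numbered deviations ran from -0.075 to 0.054. With the replicate number as a block, the 10 planned comparisons had 19, 19, 29, 25, 11, 29, 33, 29, 31 and 28 called members, in the order attached lines, EV suspended, EV late, non-apoptotic suspended, non-apoptotic late, apoptotic late, fractions early, fractions at 4 days, non-apoptotic against EV, and the difference of late changes. With the block the ratio tests gave p = 0.25, 0.016 and 0.85 (exact permutation within pairs).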
